A study of Mus musculus with 13 samples.

Results

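The genes described here encode 9 neuropeptides outside the opioid family: Npy, Nts, Trh, Cck, Adcyap1, Crh, Tac1, Vip and Sst. They were chosen by name, and their levels were read in neurons of the mouse retrosplenial cortex, a midline cortical area, and in tissue sections whose labels say brain. Of these 9 genes, 7 had a row among the 15114 genes of the cell table, while Crh and Vip were not analysed there. All 9 had a row among the 32285 genes of the section table. Of the 7 genes in cells, 6 passed the filter on low counts for the comparison of neuron classes, and Trh did not. Of the 9 genes in sections, 8 passed, and Crh did not.

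The cells were 765 neurons of wild-type (WT) B6 mice, with no treatment named, microdissected from acute slices and dissociated, in 1 group of 11 samples and 3 animals. Animal 1 gave the samples numbered 1 to 3, animal 2 those numbered 11 to 14, and animal 3 those numbered 15 to 18. The column names placed 256 cells at an anterior, 217 at a medium and 292 at a posterior dissection level. The sections were 2 cryosections of 10 µm of wild-type (WT) brain on Visium slides, called S4 and S8 here, with 1022 and 951 spots, and no strain was given for them. Both sections held 162 barcodes in common, since Visium slides share 1 set of them. Each spot captures RNA from a patch of tissue that may cover several cells or parts of them. Ages and sexes were not given in the sources used here, cells were pooled across slices, and the labels do not say whether the sections came from different animals.

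Neuropeptides are cut from larger precursors, stored in dense-core vesicles and released to act on G-protein-coupled receptors, usually beside a fast transmitter. In the cortex, somatostatin (Sst), vasoactive intestinal peptide (Vip) and neuropeptide Y (Npy) are classic products of inhibitory interneurons. Cholecystokinin (Cck) is made by some interneurons and by many excitatory pyramidal neurons, and pituitary adenylate cyclase-activating polypeptide (Adcyap1) mostly by excitatory neurons.

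The promoters are shown first, because transcription of several of these genes is classically induced through the cAMP response element, whose core is TGACGTCA. RefSeq promoter windows on GRCm38.p6 were matched by symbol for 8 of the 9 genes. The 250 bases before the start of Sst, Vip, Adcyap1, Cck and Nts follow, 5′ to 3′ on the strand of the gene. Capitals mark TGACGTCA or its first 7 bases, TGACGTC, searched on both strands, where the shorter motif lies inside the longer.
Sst, chr16:23890845-23891094, minus strand: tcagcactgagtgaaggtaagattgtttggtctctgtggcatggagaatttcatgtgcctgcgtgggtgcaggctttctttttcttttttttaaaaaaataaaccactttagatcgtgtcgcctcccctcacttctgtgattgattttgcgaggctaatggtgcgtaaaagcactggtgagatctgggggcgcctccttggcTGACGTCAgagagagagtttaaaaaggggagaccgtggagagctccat
Vip, chr10:5638968-5639217, plus strand: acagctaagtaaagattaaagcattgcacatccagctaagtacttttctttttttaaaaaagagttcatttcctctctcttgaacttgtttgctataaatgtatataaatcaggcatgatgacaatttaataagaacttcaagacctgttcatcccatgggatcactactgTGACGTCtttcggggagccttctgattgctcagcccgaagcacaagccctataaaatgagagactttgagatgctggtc
Adcyap1, chr17:93198767-93199016, plus strand: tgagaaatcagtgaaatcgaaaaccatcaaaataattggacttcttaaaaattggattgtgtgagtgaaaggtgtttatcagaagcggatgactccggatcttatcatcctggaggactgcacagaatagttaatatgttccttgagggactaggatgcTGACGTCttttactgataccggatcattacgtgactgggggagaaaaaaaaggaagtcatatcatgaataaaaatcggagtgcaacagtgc
Cck, chr9:121495695-121495944, minus strand: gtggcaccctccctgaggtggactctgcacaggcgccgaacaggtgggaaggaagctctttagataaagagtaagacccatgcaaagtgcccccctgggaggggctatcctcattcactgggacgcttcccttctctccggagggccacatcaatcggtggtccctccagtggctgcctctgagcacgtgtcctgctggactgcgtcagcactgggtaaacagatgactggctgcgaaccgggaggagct
Nts, chr10:102490419-102490668, minus strand: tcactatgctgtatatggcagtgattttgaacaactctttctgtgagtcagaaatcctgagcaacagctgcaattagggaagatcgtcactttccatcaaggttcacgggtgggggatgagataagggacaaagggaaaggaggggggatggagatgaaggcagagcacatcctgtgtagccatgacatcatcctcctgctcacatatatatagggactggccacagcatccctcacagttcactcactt

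The whole TGACGTCA was found in 1 of the 8 genes, Sst, 48 bases before its start. The shorter TGACGTC was found in 3, namely Sst, Vip (79 bases before the start) and Adcyap1 (91 bases before its first start). Across 32851 windows of the same length, 1.55% held the longer motif and 2.78% the shorter. Counted per gene, as for the members, 478 of 27025 genes had the longer motif and 854 the shorter. These matches describe letters alone, and binding of a factor was not measured.

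The samples of cells held between 2306470 and 15974543 counts each (median per cell 138331). The totals were 8436518 counts for S4 and 6389042 for S8. Median counts per cell were 65843, 132797 and 185995 in animals 1, 2 and 3. The cells had the markers of excitatory neurons: Slc17a7, the vesicular glutamate transporter, had a count in 756 of 765 cells. Gad1, which makes the inhibitory transmitter GABA, had at most 2 counts in any cell and 47 counts in all, and 1 cell held both Gad1 and Gad2. Sample 1 stood apart for the interneuron peptides. Sst had a count in 39 of its 61 cells (63.9%), against 0 to 14.1% of cells in the other 10 samples, and Npy in 26 of its cells (42.6%), against 0 to 9.33%. Shares and levels of Sst and Npy over all cells, their class means and the Npy call are therefore also given without that sample, while the likeness of genes over sums of class and animal includes it.

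**Figure D1:**
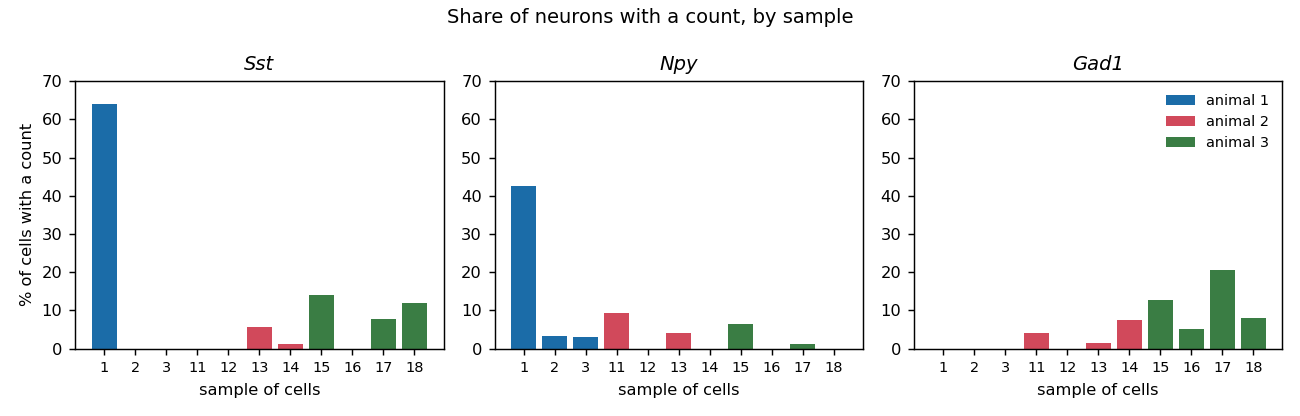
Share of neurons with at least 1 count of Sst, Npy or Gad1 (vertical axis, % of cells) in each of the 11 samples of cells (horizontal axis), coloured by animal. Sample 1 has a share of 63.9% for Sst and 42.6% for Npy, above the other 10 samples, and 0 cells with Gad1.

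Neurons were grouped into 11 classes by the genes that vary most among them, leaving out the peptides described here and the other peptide, processing and receptor genes counted below. Levels are given as CPM, a gene's counts per 1000000 counts of the cell group, with 1 value per animal. Of the 11 classes, 8 had at least 10 cells in at least 2 animals and were compared, each with the mean of the others, by edgeR on counts summed per animal. A gene was called where the p adjusted over all 13274 genes tested was under 0.05 and the log2 fold change at least 1 in size. Class 1 (201 cells) was led by Calb1, Penk and Ddit4l, class 2 (122 cells) by Thsd7a, Pygm and Car4, and class 6 (70 cells) by Ptprm and Aldh1l1. Classes 3 (78 cells, led by C1ql2 and Crym) and 7 (63 cells, led by C1ql2 and Nrtn) were layer 5 extratelencephalic-like by their markers, class 4 (71 cells, led by Rprm) layer 6 corticothalamic-like and class 5 (70 cells, led by Penk and Rasl10a) layer 6 IT-like. Class 8 (40 cells) was led by Calb1 and Ddit4l, and classes 9 (28 cells), 10 (11 cells, layer 6b-like) and 11 (11 cells, led by Kcnip1 and Pvalb) were too small for the fit. Class 3 came almost whole from the posterior level (76 of 78 cells) and held 1 cell of animal 3.

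Cck was the most abundant of the 7 peptide genes in these neurons, and its level differed between classes by more than the spread between animals. It was detected in 742 of 765 cells (97.0%, exact 95% binomial interval 95.5 to 98.1%), and 698 cells held 10 counts or more. Over the 11 samples the lowest level was 1953 CPM, the median 2344 and the highest 3114. In class 5, the layer 6 IT-like neurons, animals 1, 2 and 3 had 6463, 5065 and 4954 CPM (mean 5494 ± 841, SD, n = 3). In class 1 they had 4737, 3827 and 4050 CPM (4205 ± 474, n = 3). In class 2 they had 314, 263 and 361 CPM (312 ± 48.7, n = 3), below every animal of every other class in the fit.

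Class 5 stood higher than the mean of the other classes by a log2 fold change of 1.87 (SE 0.10, adjusted p = 5.97e-10), where 3.65% of all genes tested were called higher. Class 1 stood higher by 1.41 (SE 0.10, adjusted p = 1.12e-07), where 3.13% of genes were called higher. In class 2 Cck fell by 2.85 on the log2 scale (SE 0.14, adjusted p = 2.1e-10), where 2.24% of genes were called lower. These 3 calls held under all 15, 15 and 13 alternatives run for classes 1, 2 and 5.

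The order of Cck levels was class 5, 1, 8, 6, 3, 4, 7 and 2. Of the 7 steps between neighbours in that order, 1 was called, from class 7 (1162, 878 and 1112 CPM in the 3 animals) down to class 2, with a log2 difference of -1.72 as class 2 minus class 7 (SE 0.15, adjusted p = 7.02e-07; 4.14% of genes were called between these classes). The step from class 6 (2620 and 2249 CPM in animals 2 and 3) to class 3 (1699 and 1027 CPM in animals 1 and 2) had an adjusted p of 0.00752 with a log2 difference of -0.96, just short of the size required (1.63% of genes were called there), and it was called when classes were drawn with all genes (-1.22). The animals of classes 8 and 6, 3 and 4, and 4 and 7 overlapped, and those neighbours did not pass the test. The animals of classes 5 and 1, and of 1 and 8, did not overlap, and the adjusted p values were 0.22 and 0.239. Cck was called in 19 of the 28 pairs of classes, while 3.86% of all gene and pair combinations were.

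In class 11, outside the fit, Cck was nearly missing. Its 11 cells, from 3 animals, held 3 Cck counts in all (2.48 CPM), and 8 of them had none. Against a floor of 3 counts this is at least 962-fold lower than the mean level of the 8 classes compared. The class 9 cells had 3922, 4304 and 3501 CPM of Cck in animals 1, 2 and 3, and the layer 6b-like class 10 had 1121 and 1384 CPM in animals 1 and 2.

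Adcyap1, which raises cAMP through its receptor Adcyap1r1, was present in 6 of the 8 classes and close to missing in the 2 classes with layer 6 names. It was detected in 325 of 765 cells (42.5%, interval 39.0 to 46.1%), from 28.0 to 69.1 CPM over the 11 samples (median 46.5). In class 4, the corticothalamic-like neurons, none of 71 cells had a count (an exact upper limit of 5.06% of cells). In class 5 only 3 of 70 cells did, with 11 counts together. In class 2, animals 1, 2 and 3 had 110, 70.1 and 98.3 CPM (92.9 ± 20.6, n = 3), and in class 3 animals 1 and 2 had 84.1 and 83.6 CPM (n = 2). Every animal of classes 4 and 5 was at or below 2.78 CPM, and every animal of the other 6 classes at or above 22.2 CPM.

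Adcyap1 was called lower in class 4, at least 111-fold against the floor of 3 counts (adjusted p = 3.15e-05; 2.29% of genes were called lower there). It was called higher in class 2 (adjusted p = 1.73e-05; 4.87% of genes) and class 3 (adjusted p = 0.000954; 1.57% of genes), and in all 3 and in both of the animals compared its level exceeded the mean of the other classes. The fit also called it higher in class 1 (adjusted p = 0.0365), class 6 (adjusted p = 0.0306; 1.37% of genes) and class 7 (adjusted p = 0.00277; 2.59% of genes). Fold changes for this gene depend on the prior count, because the other classes include 1 with no count, and are not given. The call in class 1 goes against the plain levels, 32.5 CPM in class 1 and 42.7 CPM in the mean of the other classes. Without classes 4 and 5, an alternative added after seeing the data, the log2 difference was -0.68 for class 1 (adjusted p = 0.136), -0.21 for class 6 (adjusted p = 0.911) and 0.01 for class 7 (adjusted p = 1.0), and class 3 was not called (0.97, adjusted p = 0.0888). Class 2 was still called. With sums per sample, which left classes 1, 2 and 3, neither class 2 (0.86, adjusted p = 0.0199) nor class 3 (0.52, adjusted p = 0.418) was called. The call in class 1 was also lost without animal 1 (adjusted p = 0.0506) or animal 3 (adjusted p = 0.0974), and those in classes 1, 6 and 7 when classes were drawn with all genes (adjusted p = 0.238, 0.449 and 0.208).

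The order of Adcyap1 levels was class 2, 3, 7, 6, 1, 8, 5 and 4. The step from class 8 (25.4 ± 0.609 CPM, SD, n = 2) down to class 5 was the 1 neighbouring step that was called (adjusted p = 0.00155; 4.57% of genes were called between these classes), and it was lost when classes were drawn with all genes (adjusted p = 0.253). The pairs called were 12 of 28, each between class 4 or 5 and one of the other 6, while 3.86% of all gene and pair combinations were called. The difference between classes 1 and 2, -1.51 as class 1 minus class 2 (SE 0.50), had an adjusted p of 0.0868 with edgeR and passed with DESeq2 (adjusted p = 0.0205).

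Cck and Adcyap1 shared many cells, since nearly every cell had Cck: 317 of the 325 cells with Adcyap1 had a Cck count. Among the 8 classes compared, class 2 held the least Cck and the most Adcyap1 on average, and class 5 the most Cck with almost no Adcyap1. Within class 1, cells with an Adcyap1 count had 4945, 4278 and 4292 CPM of Cck in animals 1, 2 and 3, and cells without it 4637, 3647 and 3858 CPM. Cells with Adcyap1 were the higher in all 3 animals of class 1, but in 2 of 3 animals of class 2 and in 1 of 2 animals of classes 6 and 7. These differences were not tested.

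**Figure D2:**
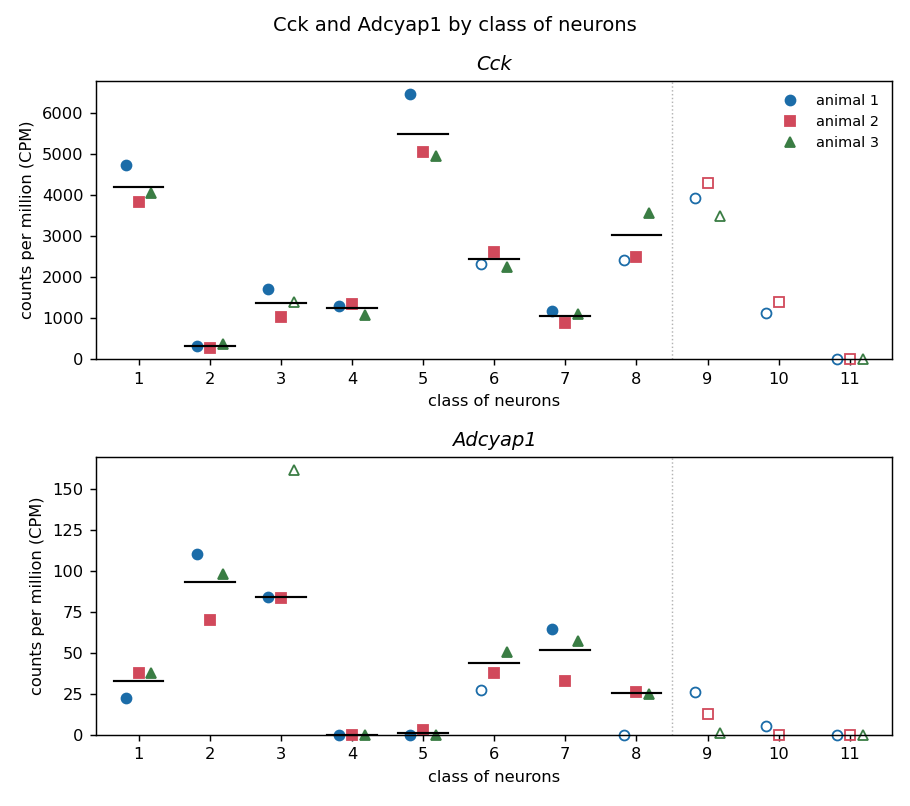
CPM of Cck (top) and Adcyap1 (bottom) in each class of neurons, 1 point per animal, on linear axes. Bars are means over the animals in the fit, open points are sums of fewer than 10 cells or of classes outside the fit, and the dotted line separates classes 9 to 11, which were not compared. Cck peaks in class 5 at a mean of 5494 CPM and is lowest of the compared classes in class 2 at 312 CPM, while Adcyap1 has no count in class 4.

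Nts, the precursor of neurotensin, was found in few cells but reached high levels in them. It had a count in 49 of 765 cells (6.41%, interval 4.78 to 8.38%), and 34 of these held 10 counts or more, up to 112. Class 4 had 20.4, 63.2 and 95.8 CPM in animals 1, 2 and 3, with a count in 25 of its 71 cells (35.2%). Class 7 had 7.83, 3.89 and 41.6 CPM, with a count in 11 of 63 cells (17.5%). Class 3, which shares the extratelencephalic markers of class 7, had none in 78 cells, and class 8 none in 40.

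Nts was called higher in class 4 (adjusted p = 4.07e-06; 3.07% of genes were called higher), above the mean of the other classes in 3 of 3 animals. It was called higher in class 7 (adjusted p = 0.000733), although only 2 of 3 animals exceeded the mean of the other classes on the CPM scale. Classes 4 and 7 overlapped and did not differ by the test (adjusted p = 0.253), and class 5 was next at 2.17 CPM. The step from class 7 to class 5 was not called either (adjusted p = 0.268). Among pairs of classes, class 7 was called only against classes 1, 6 and 8. Fold changes of Nts depend on the prior count, because the other classes include some with no count, and are not given. Of the 49 cells, 36 came from animal 3, the deepest in counts per cell, and 3 from animal 1, the shallowest. After every cell was thinned to 54512 counts, leaving out 77 shallower cells, 38.9% of the 54 class 4 cells kept had a count.

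Npy was detected in 45 of 765 cells (5.88%), mostly at 1 or 2 counts, and only 2 cells held 10 or more. Without sample 1, 423 counts in 19 of 704 cells remained (2.70%), with 1 cell at 10 or more. Class 5 had 52.7, 109 and 1.70 CPM in animals 1, 2 and 3, and the means of the other 7 classes were at or below 3.22 CPM, or 0.768 CPM without sample 1. The call in class 5 (adjusted p = 4.5e-05) rests on 1 cell, which held 392 of the 500 Npy counts of all cells (78.4%). That cell came from animal 2 at the medium level and had 37 Slc17a7 counts and no count of Gad1 or Gad2. Without it the adjusted p was 0.0852, and without animal 2 it was 0.0517. A second cell of class 5, from sample 1, held 42 counts, and without sample 1 Npy no longer passed the filter on low counts.

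Tac1, the precursor of substance P and neurokinin A, had a count in 11 cells only, with 203 counts together. Class 3 had 12.9 and 8.15 CPM in animals 1 and 2, from 3 cells, and class 7 had 0.979, 0 and 11.9 CPM in animals 1, 2 and 3, from 4 cells. Classes 4, 5 and 8 had no count. No class was called, and the lowest adjusted p was 0.0845 in class 3. Of the 11 cells with Tac1, 7 also had an Adcyap1 count.

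Trh, the precursor of thyrotropin-releasing hormone, had a count in 13 cells, with 122 counts together. The layer 6b-like class 10 held 87 of them in 4 of its 11 cells, at 127 and 44.1 CPM in animals 1 and 2. In the 8 compared classes no animal exceeded 3.10 CPM, and classes 4, 6 and 8 had none. Class 10 was too small to be tested, and 63 of the 122 counts came from 1 of its cells.

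Sst reached no cell at a level above 3 counts. Its 100 counts lay in 70 of 765 cells (9.15%), and 0 cells held 10 or more, which by the floor of 3 counts, here 3 of 765 cells, allows a share of up to 0.392% of cells. Without sample 1, 35 counts in 31 of 704 cells remained (4.40%). After thinning to 54512 counts, 3.63% of 688 cells had a count. No class was called: means ran from 0.264 CPM in class 8 to 4.17 in class 4, and the animals of neighbouring classes overlapped at every step. Without sample 1 the class means ran from 0 CPM in class 3 to 0.679 in class 4.

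**Figure D3:**
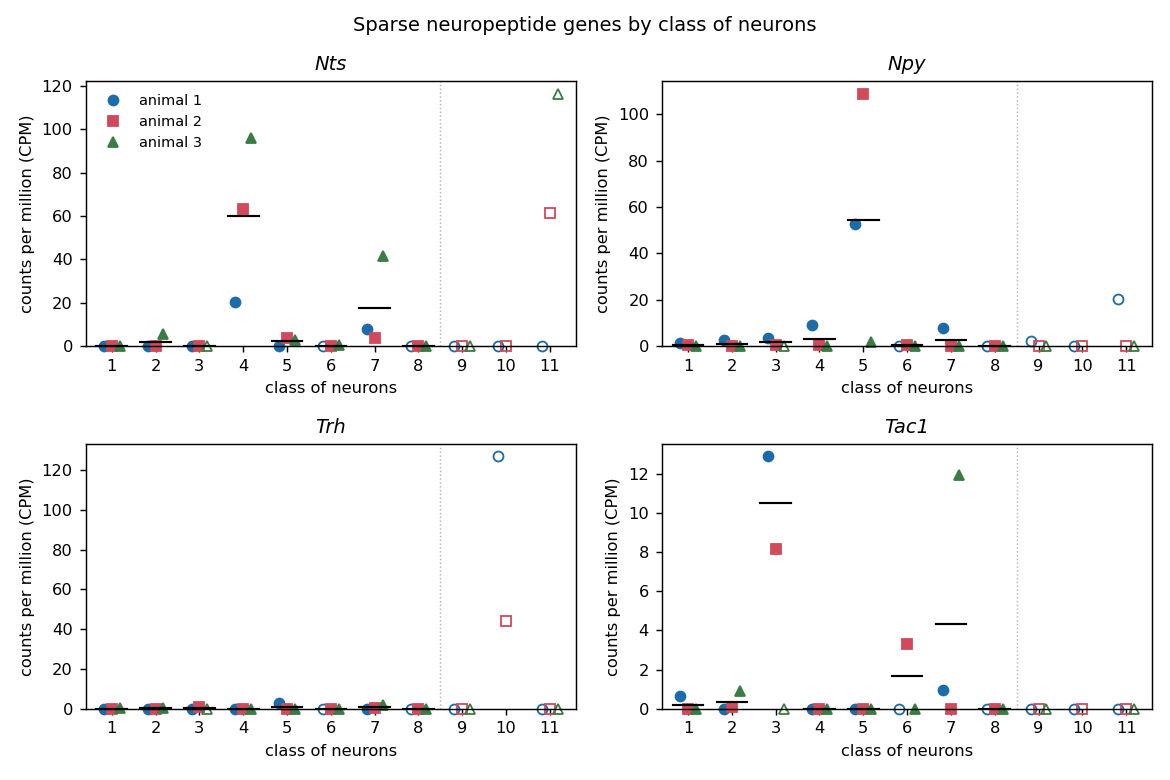
CPM of Nts, Npy, Trh and Tac1 in each class of neurons, 1 point per animal, on linear axes that differ between panels. Bars are means over the animals in the fit, and open points are sums of fewer than 10 cells or of classes 9 to 11, right of the dotted line, which were not compared. Nts is highest in class 4 among the compared classes (20.4 to 95.8 CPM), Trh in class 10 (44.1 and 127 CPM), and the Npy point of animal 2 in class 5 (109 CPM) comes from 1 cell.

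Dissection levels were compared over all neurons, with sums of each animal at each level. None of the 6 genes tested was called between posterior and anterior, where edgeR called 0.0807% of 13628 genes higher and 0.022% lower, or between medium and anterior, where it called 0.0% higher and 0.00734% lower. At an unadjusted p under 0.05, 1 of the 6 passed for posterior and 0 for medium, and DESeq2 called 1 and 0. That 1 gene was Tac1. It had 0.277, 0 and 0 CPM at the anterior level in animals 1, 2 and 3, 0, 0.0802 and 0.652 CPM at the medium level and 6.56, 4.97 and 4.71 CPM at the posterior level. Posterior values exceeded anterior values in 3 of 3 animals without overlap, and 190 of the 203 counts lay in 8 posterior cells. With edgeR the unadjusted p was 0.00105 and the adjusted p 0.326, and with DESeq2 the adjusted p was 0.000687.

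The levels differed in the classes they held. The summed level of the 4 layer 5 extratelencephalic markers (Fezf2, Bcl11b, Parm1 and Chst8, all present) was 723 CPM in posterior cells, 347 in anterior and 420 in medium cells. Of the 11 cells with Tac1, 3 were in class 3 and 4 in class 7, the classes of that name. The part of this difference in the Tac1 result was not tested, and Tac1 did not pass the filter in any class compared between levels. The summed level of the inhibitory markers Gad1 and Gad2 was near 0 at each level, from 0.459 to 0.586 CPM.

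Adcyap1 had 45.4, 41.4 and 36.9 CPM at the anterior level in animals 1, 2 and 3, and 75.0, 54.6 and 48.8 CPM at the posterior level. The posterior value was higher in 3 of 3 animals and the groups did not overlap, but the difference was not called (adjusted p = 1.0). Nts had 2.22, 2.73 and 6.25 CPM at the anterior and 7.33, 12.3 and 18.3 CPM at the medium level, higher in 3 of 3 animals (adjusted p = 0.928), and 0, 1.74 and 20.5 CPM at the posterior level. Cck had 3394, 1912 and 2968 CPM at the anterior and 1913, 2567 and 2397 CPM at the posterior level, and the groups overlapped. Npy and Sst also overlapped between levels. Trh had 0.554, 3.01 and 0.564 CPM at the anterior and 0.354, 0.349 and 0.0981 CPM at the posterior level, without overlap. In animals 1, 2 and 3 these came from 2, 64 and 13 anterior and 2, 4 and 2 posterior counts. Of the 64 counts, 63 lay in 1 cell of class 10. At the medium level Trh had 14.7, 0.240 and 0.592 CPM. It did not pass the filter to be tested.

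**Figure D4:**
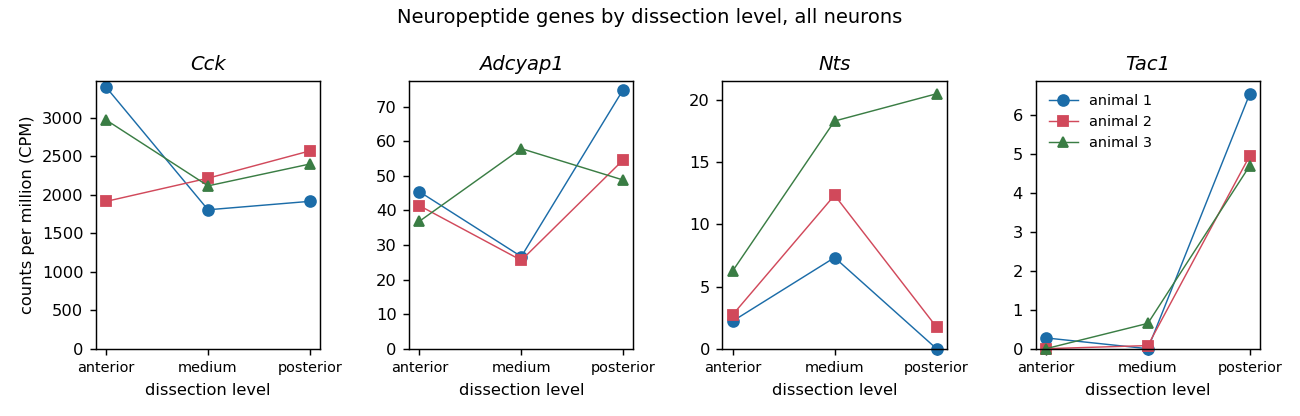
CPM of Cck, Adcyap1, Nts and Tac1 (vertical axes, linear) over all neurons of each animal at the anterior, medium and posterior dissection level, with lines joining the values of 1 animal. Tac1 lies between 4.71 and 6.56 CPM at the posterior level and at or below 0.652 CPM elsewhere.

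Within a class, levels could be compared in classes 1, 2, 5 and 6, each with 2 animals. Cck was tested in all 4, Adcyap1 in classes 1, 2 and 6, and Npy in class 5. None was called, and edgeR called 0.0% of genes in each of these fits. At an unadjusted p under 0.05 none of these members passed either, and DESeq2 called none. In class 1, Cck had 3706 and 4595 CPM in posterior and 3850 and 3964 CPM in anterior cells of animals 2 and 3, and the groups overlapped. Adcyap1 in class 1 had 36.7 and 37.5 CPM in posterior and 49.5 and 39.1 CPM in anterior cells, lower in both animals but short of the test (adjusted p = 0.992). In class 6 it had 30.6 and 44.4 CPM in posterior and 60.1 and 53.7 CPM in anterior cells of animals 2 and 3, again short of the test (adjusted p = 1.0). In class 2 it had 90.1 and 78.4 CPM in posterior and 170 and 75.5 CPM in anterior cells of animals 1 and 3, higher at the posterior level in 1 of 2 animals. Over all neurons Adcyap1 had been the higher at the posterior level.

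In the sections, all 9 genes were present, and their relation to each other differed from that in the dissociated neurons. Cck had 1171 CPM in S4 and 946 in S8, with a count in 99.3% and 96.2% of spots. Sst had 350 and 415 CPM, with a count in 71.2% and 70.1% of spots, against 0.860 CPM in the cells (0.311 without sample 1). Npy had 163 and 147 CPM against 4.30 in the cells (3.76 without sample 1). Vip had 75.3 and 57.4 CPM, Tac1 23.9 and 19.4 CPM, Adcyap1 20.4 and 20.5 CPM, Trh 9.36 and 10.0 CPM, Crh 8.89 and 5.63 CPM and Nts 7.94 and 5.95 CPM. Gad1 had 198 and 188 CPM in the sections and 0.404 CPM in the cells. The assays differ in the cells they capture and in their chemistry, so levels are set side by side and not tested, and in spots fewer cells of a type and less RNA per cell cannot be told apart. Levels are not corrected for gene length.

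Spots were grouped into 10 zones by genes other than these peptides, after centring each gene within its section. The zones are described by their leading genes. Each zone was compared with the mean of the others over 10473 genes, with the section as a block. With 2 sections the test measures the spread between these sections alone. Of the 8 genes tested, Trh, Vip, Sst, Nts, Tac1 and Adcyap1 were called in at least 1 zone, as were 11.4% of all genes tested, and Cck and Npy in none.

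Trh had the most local pattern. In zone 4, led by Calb2, Dlk1 and Nnat, it had 72.2 CPM in S4 and 61.4 in S8, and the mean of the other zones was 2.22 and 3.22 CPM. A count of Trh was found in 27.0% and 23.3% of the zone 4 spots, and the zone held 62 of the 79 Trh counts of S4 and 53 of the 64 of S8. Trh was called higher there (adjusted p = 1.26e-14; 2.01% of genes were called higher). Trh passed the filter on low counts only through the sums of zone 4, so the call adds no support beyond these levels. The second highest zone was zone 10, led by haemoglobin genes, with 1.59 CPM in S4 and 17.3 in S8, where the sections differed.

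Vip, a peptide of disinhibitory interneurons, was high in zones with upper-layer leading genes. In zone 2, led by Cux2 and Rasgrf2, it had 194 CPM in S4 and 91.2 in S8 (log2 fold change 1.56, SE 0.17, adjusted p = 2.28e-08; 0.974% of genes were called higher). In zone 6, led by Rspo1 and Rorb, it had 91.7 and 125 CPM (1.06, SE 0.21, adjusted p = 0.00078; 1.21% of genes). In zone 8, led by the meningeal genes Ptgds and Myoc, it had 138 and 58.3 CPM (1.09, SE 0.27, adjusted p = 0.00758; 2.39% of genes), and without the shallowest 10% of spots that call was lost (adjusted p = 0.121). In zone 9, led by Myl4, Scn4b and Fezf2, Vip was lowest at 20.5 and 17.7 CPM (-1.66, SE 0.37, adjusted p = 0.00933; 0.201% of genes were called lower), and the call was lost without the section as a block (adjusted p = 0.07) and with zones drawn with all genes (adjusted p = 0.0863).

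Sst ran the other way in zone 2. It had 229 and 164 CPM there and fell by 1.03 on the log2 scale (SE 0.19, adjusted p = 0.000255; 0.707% of genes were called lower), just past the size required. It fell short of that size without the filter on low counts (-0.998) and with zones drawn with all genes (-0.93). In zone 5, led by Cyp26b1 and Hpcal1, Sst had 568 CPM in S4 and 1325 in S8, from 149 and 34 spots (1.30, SE 0.17, adjusted p = 8.28e-07; 0.764% of genes were called higher). Both sections were above the mean of their other zones, 315 and 398 CPM. Npy in the same zone had 180 and 398 CPM, with a log2 fold change of 0.70 (adjusted p = 0.0184), and in zone 4 it had 90.9 and 81.1 CPM, with -0.94 (adjusted p = 0.000775), both short of the size required. The summed level of Gad1 and Gad2 was 299 and 222 CPM in zone 2, 304 and 389 CPM in zone 5, 325 and 273 CPM in zone 6, 409 and 408 CPM in zone 8 and 310 and 283 CPM in zone 9, and its part in the Vip and Sst results was not tested.

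Nts was highest in zone 1, led by Tshz2 and Nrep, with 28.8 CPM in S4 and 15.4 in S8, from 32 of its 67 and 15 of its 38 counts (adjusted p = 1.98e-06; 1.56% of genes were called higher). It was also called higher in zone 5, at 13.3 and 9.36 CPM (adjusted p = 0.0396), from 18 and 2 counts, and that call was lost without the section as a block (adjusted p = 0.0964) and with zones drawn with all genes (adjusted p = 0.336), and DESeq2 gave it no adjusted p. Nts passed the filter on low counts only because of its zone 1 sums, so the zone 1 call adds no support beyond the levels there. Zone 9 held no Nts count. Zone 3, with Ighm, Foxp2, Cplx3 and Mobp among its leading genes, had 2.80 and 5.26 CPM of Nts, from 3 and 5 counts, and was not called.

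Tac1 was called lower in zone 2, at 7.60 and 7.01 CPM (-1.61, SE 0.37, adjusted p = 0.00324), and was lower in zone 6 too, at 10.2 and 8.32 CPM, without passing (adjusted p = 0.0811). Adcyap1 was called lower in zone 3, at 10.3 and 9.48 CPM (-1.11, SE 0.35, adjusted p = 0.0408; 1.32% of genes were called lower), and in zone 4, at 16.3 and 2.32 CPM (-1.19, SE 0.38, adjusted p = 0.0316; 2.22% of genes). Both Adcyap1 calls were lost without the section as a block (adjusted p = 0.114 and 0.082) and with DESeq2 (adjusted p = 0.218 and 0.136), and that in zone 4 also without the shallowest 10% of spots (adjusted p = 0.0698). All 4 oligodendrocyte markers were present in zone 3, with a summed level of 4318 CPM in S4 and 5534 in S8, against 648 to 3095 CPM in the other zones, and their part in the Adcyap1 result was not tested.

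Cck varied less over the zones than over the classes of neurons. A spot may mix several cells, so these spreads are of unlike units, and their difference was not tested. Its highest zone was zone 2, at 1672 CPM in S4 and 1400 in S8, with a log2 fold change of 0.60 (SE 0.10, adjusted p = 6.4e-05), short of the size required. On the mean of both sections its lowest was zone 1, at 875 and 739 CPM (-0.36, SE 0.11, adjusted p = 0.0285), and in S8 zone 8 was lower, at 605 CPM. Crh, the precursor of corticotropin-releasing hormone, had 75 counts in S4 and 36 in S8 and was not tested. In S4 it was highest in zone 2, at 26.6 CPM, from 35 counts, while the same zone of S8 had 4.67 CPM from 4 counts.

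**Figure D5:**
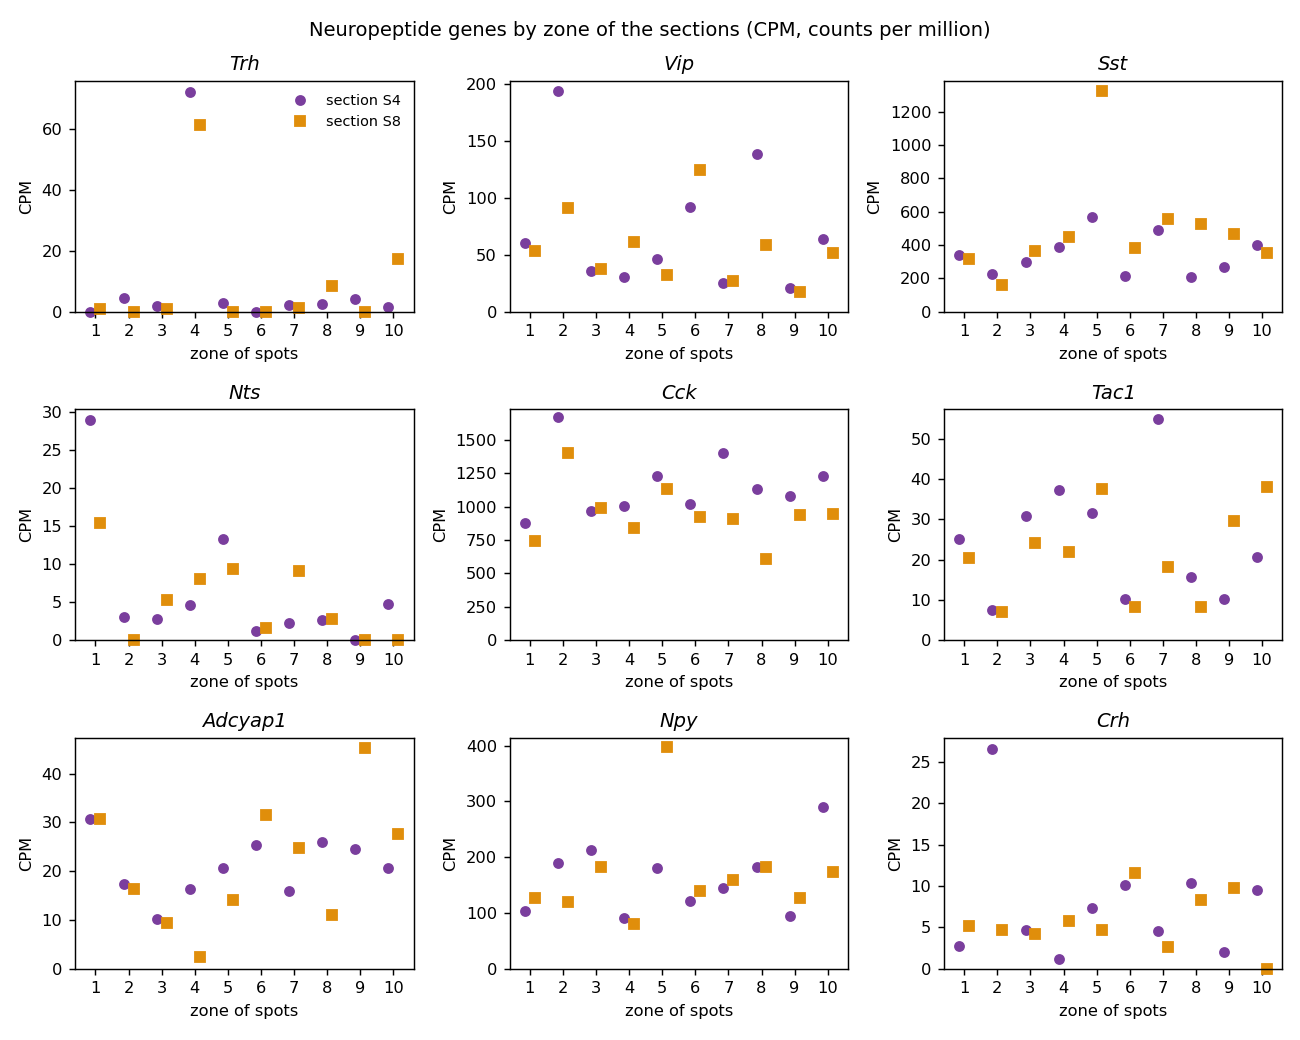
CPM (vertical axes, linear, differing between panels) of the 9 peptide genes in each of 10 zones of spots (horizontal axes), 1 point for each section. Trh reaches 72.2 and 61.4 CPM in zone 4 and Sst 568 and 1325 CPM in zone 5, while Crh in zone 2 is high in S4 alone at 26.6 CPM.

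The genes whose level followed each peptide most closely were sought over the 21 sums of class and animal, as a description, since these sums share animals and classes. For Cck they were Pdp1 (Pearson r 0.92), Kcnv1 (0.92) and Atp2b4 (0.90). For Adcyap1 they were Serpine2 (0.93), Neurod1 (0.92) and BC005764 (0.92). Serpine2 had 247 CPM in class 2 and 1.13 CPM in class 4. For Nts they were Lpgat1 (0.78), Hcrtr2 (0.78) and Dzip1 (0.77), and for Tac1 Stac (0.85), Spag17 (0.85) and Car8 (0.81). For Npy they were Adrbk2, Ubap2l and Ccnb1 (0.76, 0.76 and 0.74). For Sst they were Rpl32-ps, Rpl27-ps2 and Ap2a1 (0.95, 0.92 and 0.90). The first pair are named as pseudogenes, so their counts are uncertain. Ap2a1 ran only from 37.7 CPM in class 5 to 42.2 CPM in class 3 among the classes compared. Sample 1 held 65 of the 100 Sst counts, and its part in these r values was not tested. Over the 20 sums of zone and section, Trh was closest to Krt2 (0.87), Gpr101 (0.86) and Car12 (0.85), Vip to Nectin3 (0.81) and Sst to Cox16 (0.88).

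A further 3 lists were counted beside these peptides. Among 34 other neuropeptide genes, 7 passed the filter in the classes, and Grp, Kiss1 and Nppc (3) were called in 1 class or more, where 18.1% of all 13274 genes tested were. Grp, gastrin-releasing peptide, had 204 CPM (SD 109, n = 2) in class 3 and 244 CPM (SD 263, n = 2) in class 8, both called higher, and 3.51 and 1.75 CPM in classes 2 and 5, both called lower. Nppc, a natriuretic peptide, was called higher in class 4 at 94.1 CPM (SD 5.95, n = 3). All 15 genes for peptide processing and granules passed the filter, and 10 were called in 1 class or more. Cadps2, a priming factor of dense-core vesicles, was called higher in classes 2, 3 and 7, at 180, 148 and 95.2 CPM, and lower in classes 1 and 8, at 11.1 and 15.9 CPM. Qpct, which forms the pyroglutamate end found on neurotensin and thyrotropin-releasing hormone, was called higher in classes 4 and 5, at 29.5 and 31.0 CPM, and had no count in class 7.

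Among 24 receptors and binding proteins of the 9 peptides, 14 passed the filter. Of these 14, 8 were called in 1 class or more, against the 18.1% of all genes given above. Adcyap1r1, the receptor of the Adcyap1 product, was called higher in class 5, at 68.7 CPM (SD 20.7, n = 3), and lower in class 3, where it had no count. Classes 4 and 7 had 1.42 and 1.45 CPM. So class 5 had the receptor with almost no Adcyap1, and class 3 had Adcyap1 with no count of the receptor. Class 7 was close to class 3, with a mean of 51.7 CPM of Adcyap1 and 0, 0 and 4.35 CPM of the receptor in animals 1, 2 and 3. Classes 1, 2, 6 and 8 had both, with the receptor lowest in class 6 among these. Crhr1, the receptor of Crh, was called higher in class 2, at 53.7 CPM (SD 7.26, n = 3), and lower in class 4, where it had no count. Ntsr2, a neurotensin receptor, was called higher in class 2, at 15.2 CPM (SD 3.73, n = 3), and had no count in class 4, the class with most Nts in the fit.

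In the zones, 4 of 7 other neuropeptide genes tested, 1 of 15 processing genes and 6 of 14 receptor genes were called in at least 1 zone, against the 11.4% of all genes given above. Trhr, the receptor of thyrotropin-releasing hormone, was called higher in zone 4, at 31.4 CPM in S4 and 37.1 in S8, the same zone as Trh (adjusted p = 4.46e-08). Npy2r was called higher in that zone too, at 30.3 and 26.6 CPM, where Npy was among its lowest. Npy2r passed the filter on low counts only through that zone, so its call adds no support beyond these levels. Crhr1 was called higher in zone 6, at 45.8 and 54.9 CPM. Pcsk1, a prohormone convertase, was the processing gene called, in zone 9 at 55.4 and 47.2 CPM. Among the other neuropeptides, Nmb was called higher in zone 7, Grp higher in zone 3 and lower in zone 6, and Cort, a relative of Sst, lower in zone 4.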

How the data were processed

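Neurons of 11 samples and 2 Visium sections were analysed. The authors deposited whole-number counts per gene and per cell or spot, not normalized, as read from the values. Per the submitters' processing notes, Seurat, Space Ranger and the builds NCBIM37 and mm10 were used, and the step each served, the filters and whether the cell counts are reads or molecules are not given in the sources used here. Each cell's animal came from a deposited table and its dissection level from the column names per the file headers. No count column was left without a sample (0). Of 55 pairs of samples of cells, 0 agreed within sampling noise.

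Clusters of cells and of spots came from Leiden clustering (resolution 1, seed 1, 15 neighbours, 30 components of 2000 variable genes, logged after scaling to 10000) in scanpy 1.11.5 under Python 3.11.15, without the members and the listed peptide genes. No doublet caller was run. A class took a cell type's name where at least 3 of its markers had a row and all of those led. Markers of other types also had to be no more numerous among the leading genes of the class. Counts were summed per animal and class (at least 10 cells), animal and level, animal, class and level (at least 5 cells), or section and zone (at least 10 spots). The quasi-likelihood test of edgeR 4.0.16 (R 4.3.3; TMM scaling, filterByExpr) was applied to the sums, with the animal or section as a block and Benjamini-Hochberg adjustment over all genes tested. An SE was obtained as the absolute log2 fold change over the square root of F. DESeq2 1.42.0 was the alternative tool. The fits were tested on simulated data. Replicates pair across groups because the animal or section is the same. Intervals of shares are exact binomial (Clopper-Pearson) at 95%, and they and the floor of 3 counts cover counting error alone, because PCR copies of 1 molecule may be counted more than once. Thinning used 1 fixed total, the 10th percentile.

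The members, gene lists and tests were chosen with earlier results of these data known. Named genes were the 9 members, up to 3 genes per further list and comparison with the largest called change, and per member the 3 genes with the highest Pearson correlation of log2 CPM. Promoters came from the RefSeq table of GRCm38.p6, and protein sequences were not used here.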

Additional observations from a re-analysis of the deposited data

Results flagged for a closer look

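Some values lie outside the comparisons or differ between classes. Nts reached 96.9 CPM in class 11, which was too small for the fit, above the highest class compared. It came from 3 of 11 cells, in animals 2 and 3, and Gad1 and Gad2 together had 2 counts in that class. Trh reached 53.3 CPM over the 11 cells of class 10, also outside the fit, against 3.10 CPM at most in any animal of the classes compared.

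The differences of Cck between dissection levels had opposite signs in classes 5 and 2. In class 5, posterior cells were above anterior cells in 2 of 2 animals, with a log2 difference of 0.23. In class 2 they were below in 2 of 2 animals, with -0.18. Neither difference passed its own test (adjusted p = 1.0 in both), and the difference between the classes was not tested.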

How the results depend on the processing

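The main class fit tested 6 members and 13274 genes in each of 8 classes, and 18.1% of all genes were called in at least 1 class. Of the member calls, 12 were made between neuron classes with the animal as a block, 13 without that block, 14 with DESeq2 and 9 to 11 without 1 animal or sample. Sums per sample left classes 1, 2 and 3 and gave 3 calls. Without classes 4 and 5 there were 6. Over all genes, 4418 calls were made between classes, 2174 to 3596 without 1 animal or sample, 2898 without classes 4 and 5 and 2257 with sums per sample. Adcyap1 reversed in class 1 without classes 4 and 5 (-0.68) and with sums per sample (-1.38), and in class 6 without classes 4 and 5 (-0.21).

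Between posterior and anterior, 0 members were called with the block and 0 without it, and 1, Tac1, with DESeq2. Over all genes there were 14 calls, 108 with DESeq2, 1 without the replicate block, 5 without the shallowest 10% of cells and 1 to 10 without 1 animal. Between medium and anterior there was 1 call, 12 with DESeq2 and 1 to 2 without 1 animal. Within classes there were 0, 71 with DESeq2 and 4 with no filter on low counts. The main zone fit tested 8 members and 10473 genes in each of 10 zones, and 11.4% of all genes were called in at least 1 zone. Between zones, 12 member calls became 8 without the section as a block and 9 with DESeq2, and 1965 calls over all genes became 1270 with DESeq2. Where a value moved and no test of the cause is given above, the cause was not tested. Leaving out a section was not run, because 1 section leaves no residual degrees of freedom. The count of members in at least 10% of cells was 2 under each setting, and in spots 6, or 4 after thinning or with at least 2 counts. Depth limits Crh and Nts in spots, with 75 and 67 counts in S4 and 36 and 38 in S8. Classes drawn with all genes kept 731 of 765 cells in their class and zones 1650 of 1973 spots.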
